A study of Sus scrofa with 6 samples.

Results

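Of the 10916 rows of the deposited expression table, 21 were aminoacyl-tRNA synthetase genes, the enzymes that load each amino acid onto its transfer RNA before translation. They were taken by name: every gene symbol made of 1 letter followed by ARS, with or without a final 1 or 2, together with EPRS and FARSA (FARSB, the other subunit of the phenylalanine enzyme, was not analysed here). The 13 rows whose symbol has no final 2, WARS being on 2 of them, were counted as cytosolic and the 8 with a final 2 as mitochondrial. The rule reads only gene symbols. RNA had been sequenced from porcine endometrial epithelial cells, a primary culture from uteri of slaughtered pigs at passage 3. In the exosome group (3 libraries) the cells were kept for 48 h with 10 µg per well of vesicles precipitated from sperm-rich fractions of boar seminal fluid, and the control group (3 libraries) had no exosomes. All 6 libraries share the culture method, no genotype or strain is named, and whether a group's libraries came from separate pigs is not stated, so each p-value below measures only the spread between these libraries.

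Cells keep separate sets of these enzymes for the ribosomes of the cytosol and for those inside mitochondria, and both sets are encoded in the nucleus. GARS and KARS are exceptions in which 1 gene makes both forms, and mitochondria have no glutaminyl enzyme of their own, since EARS2 charges that transfer RNA with glutamate for later conversion. Several cytosolic enzymes, among them EPRS, KARS, DARS, RARS, IARS, LARS and MARS, sit together in the multisynthetase complex. Many cytosolic synthetase genes are targets of ATF4, a transcription factor of the amino acid response.

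Levels are given in FPKM, fragment counts scaled to transcript length and library size, which can therefore be compared between genes. Summed FPKM over the table came to 728438 ± 6270 for the control group and 703263 ± 11360 for the exosome group (SD, n = 3 each), and the read depth behind these values is unknown. On the overall difference between libraries, exosome replicate 2 stood nearer to control replicates 2 and 3 (SD of log2 ratios 0.20 each) than to exosome replicates 1 and 3 (0.24 and 0.25). Of the epithelial markers, KRT19 (3193 ± 88.8 FPKM in the control), KRT8 (3037 ± 48.0), KRT18 (1255 ± 15.0) and EPCAM, listed as TACSTD1 (345.8 ± 12.5), were abundant. CLDN4, MUC1 and ELF3 were at 1029 ± 33.9, 308.2 ± 22.8 and 195.0 ± 6.18 FPKM in the control, and ESR1 at 2.16 ± 0.139. Of the stromal markers, CD90 (2328 ± 93.7 FPKM in the control) and VIM (556.7 ± 52.4) were also high. COL1A2, COL1A1 and COL3A1 were at 50.9 ± 4.67, 15.7 ± 13.8 and 1.18 ± 0.862 FPKM in the control. COL1A1 and COL3A1 thus varied widely between libraries, COL1A1 from 2.48 to 30.0 FPKM in the controls. These levels alone do not settle the identity of the cells. Most markers measured had a negative log2 change, but only the epithelial list had several members called. Of 8 epithelial markers 7 had a negative log2 change and 4 were lower at an unadjusted p under 0.05 (50%, beside 7.5% of all genes, of which 49.2% had a positive change), with a summed level of 9206 to 9534 FPKM in the controls and 8135 to 8942 in the exosome libraries. Of 5 stromal markers all had a negative log2 change, with sums of 2788 to 3042 and 2274 to 2494 FPKM, most of it CD90. The 3 leukocyte markers tested also had negative log2 changes, led by LCP1 (146.0 and 125.5 FPKM). Only LCP1 was lower at an unadjusted p under 0.05 (1 of 3, 33.3%, beside 7.5% of all genes). All 3 overlapped between the groups, as did the list sums of 151.8 to 160.2 and 117.6 to 153.1 FPKM. The 1 endothelial marker measured, KDR, was at 1.58 and 1.07 FPKM. Other markers of these lists, such as PTPRC, PECAM1 and DCN, were not analysed here. In bulk RNA, fewer cells of a type and less RNA per cell cannot be told apart, and the part of these marker shifts in the synthetase values was not tested.

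Cytosolic synthetase genes were expressed well above the mitochondrial ones. Summed over the 13 cytosolic genes the level was 1513 ± 21.5 FPKM in the controls and 1545 ± 10.4 in the exosome libraries (SD, n = 3 each). The 8 mitochondrial genes summed to 102.5 ± 0.729 and 100.9 ± 5.96 FPKM. The cytosolic sum was therefore 14.8 ± 0.295 times the mitochondrial sum in the controls and 15.4 ± 1.02 times in the exosome libraries, and the ranges overlapped, from 14.6 to 15.1 and from 14.4 to 16.4. KARS and GARS, which serve both compartments, are in the cytosolic sum, and without them it was 9.02 ± 0.196 and 9.43 ± 0.571 times the mitochondrial one. With 10 further synthetase rows that have no symbol in the table, described below, the ratios were 10.1 ± 0.254 and 10.4 ± 0.447. As a share of all FPKM, the cytosolic genes took 0.208% ± 0.00231 and 0.220% ± 0.00424, and the mitochondrial genes 0.0141% ± 0.000149 and 0.0143% ± 0.000876. The cytosolic shares did not overlap between the groups (0.206% to 0.210% and 0.216% to 0.224%), whereas the cytosolic sums in FPKM did. The lower total FPKM of the exosome group enters these shares. Median levels over genes, taken from each gene's mean over the 6 libraries, were 86.1 FPKM for the cytosolic and 10.3 FPKM for the mitochondrial set, beside 15.0 FPKM for all 10846 genes tested.

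KARS, which charges lysine in both compartments, was the highest member, at 402.1, 402.8 and 397.3 FPKM in the controls and 392.9, 401.3 and 399.9 in the exosome libraries. The groups overlapped and all 6 values lay between 392.9 and 402.8 FPKM. NARS, for asparagine, and GARS, for glycine in both compartments, came next and could not be put in an order, since NARS was the higher of the pair in 4 of 6 libraries. GARS was at 194.4, 186.1 and 184.5 FPKM in the controls and 190.2, 209.2 and 193.5 in the exosome libraries. Below these stood WARS for tryptophan, SARS for serine, RARS for arginine and YARS for tyrosine, with means over the 6 libraries that fell from 128.1 to 86.1 FPKM. The ranges of WARS and SARS overlapped, although WARS was the higher in all 6 libraries. EPRS, the joint enzyme for glutamate and proline, DARS for aspartate, HARS for histidine and CARS for cysteine followed, with ranges that overlapped from each gene to the next.

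At the low end of the cytosolic set, CARS was at 62.8, 57.4 and 58.3 FPKM in the controls and 54.3, 57.4 and 57.6 in the exosome libraries. FARSA, the catalytic subunit of the phenylalanine enzyme, was at 26.2, 26.0 and 24.4 and at 25.2, 23.8 and 24.4 FPKM. Both sets of values overlapped between groups. A second row that carries the symbol WARS (ENSSSCG00000006721) lay far under the other one (ENSSSCG00000002516), at 11.3, 14.1 and 11.4 FPKM in the controls and 11.0, 11.2 and 9.36 in the exosome libraries. The reference table lists the abundant row as WARS1, does not list the second row, and lists WARS2 under yet another identifier. What the second row measures is therefore uncertain, and the medians and counts it enters are given without it where they move. YARS has a similar limit: its identifier (ENSSSCG00000029457) is not in the reference table, which puts YARS1 on the identifier that the deposited table calls KIAA1522.

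**Figure D1:**
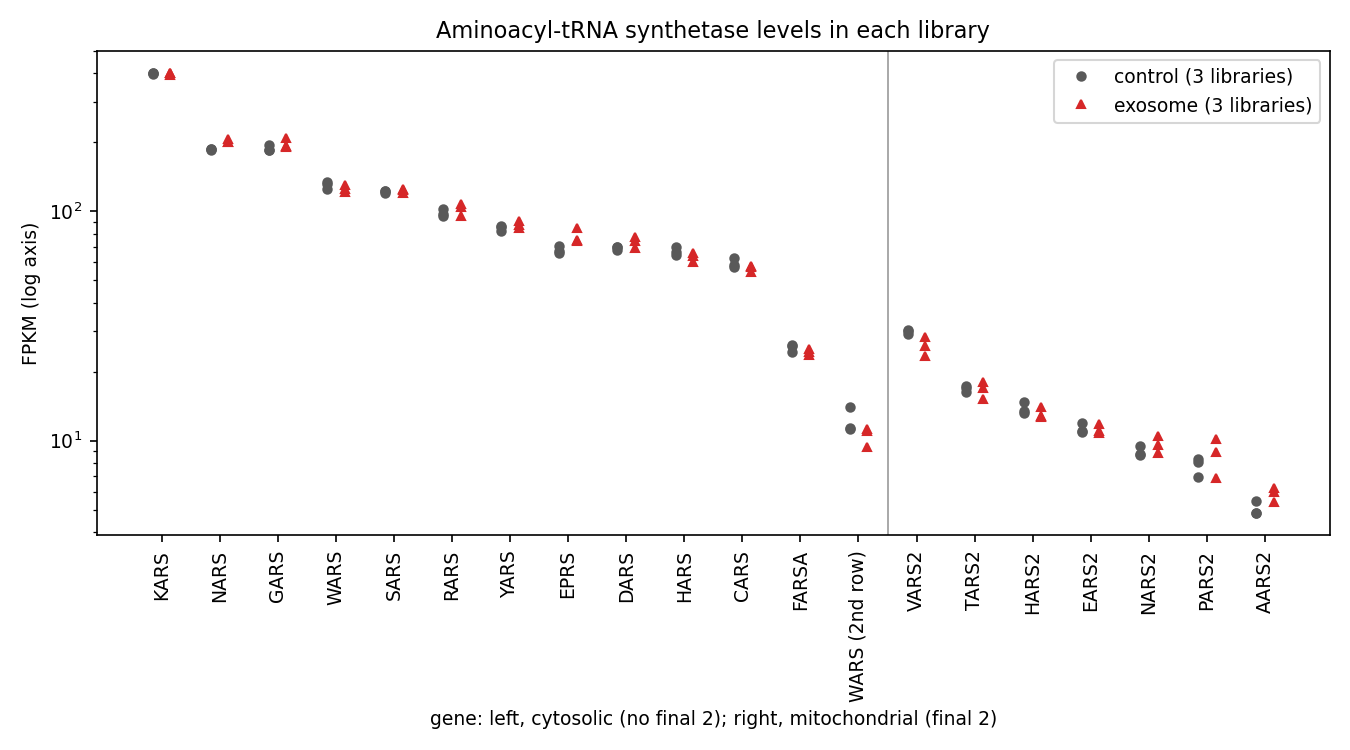
FPKM of 20 of the 21 synthetase genes (log axis) in the 3 control libraries (circles) and the 3 exosome libraries (triangles), ordered by mean level within the cytosolic set on the left and the mitochondrial set on the right. The cytosolic genes run from about 400.7 FPKM for KARS in the control down to FARSA and the second WARS row, which lie in the range of the mitochondrial genes.

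Among the mitochondrial genes VARS2, for valine, was the highest, and its range over the 6 libraries lay clear of TARS2. TARS2, for threonine, was at 17.0, 16.3 and 17.3 FPKM in the controls and 18.0, 15.2 and 17.1 in the exosome libraries, which overlapped. HARS2, for histidine, was at 13.4, 14.7 and 13.2 FPKM in the controls and at 14.0, 12.7 and 12.9 in the exosome libraries, again overlapping. EARS2, for glutamate, was nearly level between the groups (11.3 ± 0.555 and 11.2 ± 0.526 FPKM).

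NARS2 and PARS2, for asparagine and proline, had overlapping ranges, with NARS2 the higher in 5 of 6 libraries. NARS2 was at 8.68, 8.71 and 9.44 FPKM in the controls and 10.4, 8.81 and 9.58 in the exosome libraries. PARS2 was at 8.32, 8.04 and 6.96 FPKM in the controls and 8.94, 6.89 and 10.1 in the exosome libraries, the widest relative spread of the 21 genes (CV 19.0% in the exosome group). AARS2, for alanine, was the lowest member and stood clear of PARS2.

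The exosome and control libraries were compared to ask whether seminal exosomes go with a change of these transcripts. None of the 21 synthetase genes passed an adjusted p of 0.05 in limma's moderated test over all 10846 genes, where 0 genes passed in all (0%), and the adjusted p-values of the 21 ranged from 0.317 to 0.976. At an unadjusted p under 0.05 there were 3 synthetase genes (14.3%), beside 12.6% of all genes tested. EPRS and NARS were higher in the exosome libraries (2 of 21, where 5.06% of all genes were called higher) and VARS2 was lower (1 of 21, beside 7.5%). The groups did not overlap in 4 of the 21 (19.0%), these 3 and the second WARS row, beside 18.7% of all genes (8.29% with the exosome libraries above and 10.4% below). Without that row it was 3 of 20 (15.0%). Taken in either direction, the shares among the synthetases were thus close to those of all genes. The share called higher was 9.52% (2 genes) beside 5.06%. As the share of all genes called did, the calls at an unadjusted p changed with the library left out. They were 6 of 21 higher (EPRS, NARS, DARS, AARS2 and PARS2 among them) and 1 of 21 lower (VARS2) without exosome replicate 2, where 10.2% and 11.8% of all genes were called. None of the 21 passed over all genes in that fit either, while 2.74% of all genes did. The counts were 1 and 0 without control replicate 2, 0 and 0 without control replicate 3, and 2 and 0 without exosome replicate 1. In these fits 7.39%, 8.18% and 7.39% of all genes were called in either direction, beside 12.6% with all 6 libraries. With every library scaled to the same FPKM sum they were 5 of 21 higher and 0 lower (beside 10% and 3.87% of all genes).

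EPRS (ENSSSCG00000010821), placed at chr10:9579301-9648416 by RefSeq on Sscrofa11.1, encodes the bifunctional enzyme of the multisynthetase complex. It was at 67.2, 70.9 and 66.2 FPKM in the controls and 84.7, 74.1 and 75.2 in the exosome libraries. All 3 exosome libraries lay above the controls, and exosome replicate 1 stood highest. The means were 68.1 ± 2.48 and 78.0 ± 5.82 FPKM (SD, n = 3 each). The log2 change was 0.19 (SE 0.06, adjusted p = 0.317 in limma), and here, as below, changes are on the scale of log2(FPKM + 1), which understates those of low genes. IARS2, the mitochondrial isoleucine gene, starts 37225 bp beyond the end of EPRS on the same chromosome. The table gives IARS2 no symbol, and its levels were 44.2 ± 1.57 and 44.7 ± 0.802 FPKM (log2 change 0.01).

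NARS (ENSSSCG00000004542; chr1:106911267-106933105) was at 186.8, 187.3 and 186.1 FPKM in the controls and 207.5, 201.5 and 200.3 in the exosome libraries. The groups were separate, and the control SD was 0.573 FPKM. The log2 change was 0.12 with a 95% interval from 0.03 to 0.21 (adjusted p = 0.319 in limma). Its mitochondrial counterpart NARS2 had a log2 change of 0.09 with an interval from -0.09 to 0.27.

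VARS2 (ENSSSCG00000001384; chr7:23404400-23416442) was at 29.3, 30.3 and 30.2 FPKM in the controls and 23.4, 25.8 and 28.4 in the exosome libraries. All exosome libraries lay below the controls, with exosome replicate 3 the nearest to them. The means were 29.9 ± 0.534 and 25.9 ± 2.50 FPKM, a log2 change of -0.21 (SE 0.07, adjusted p = 0.336 in limma). The second WARS row had a log2 change of -0.19 with an interval from -0.44 to 0.05 (adjusted p = 0.482 in limma). Its separation was narrow, since exosome replicate 2 at 11.2 FPKM lay just under control replicate 1 at 11.3.

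AARS2 (ENSSSCG00000001706; chr7:39301020-39314296) was at 5.48, 4.83 and 4.83 FPKM in the controls and 5.99, 5.42 and 6.24 in the exosome libraries. Exosome replicate 2 lay under control replicate 1, so the groups overlapped. The log2 change of 0.19 had a 95% interval from -0.01 to 0.38.

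The other cytosolic genes showed small differences in either direction. DARS, GARS, RARS, YARS and SARS had positive log2 changes from 0.01 to 0.08, and HARS, CARS, FARSA, WARS and KARS negative ones from -0.08 to -0.01. For KARS, the most abundant, the 95% interval of the log2 change ran from -0.10 to 0.08. Over the 21 genes the bounds of these intervals, as folds of FPKM + 1, reached 1.35 (PARS2) and 0.739 (the second WARS row). That scale understates the change in FPKM of such low genes. Each interval is that of 1 gene and covers only the spread between libraries.

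**Figure D2:**
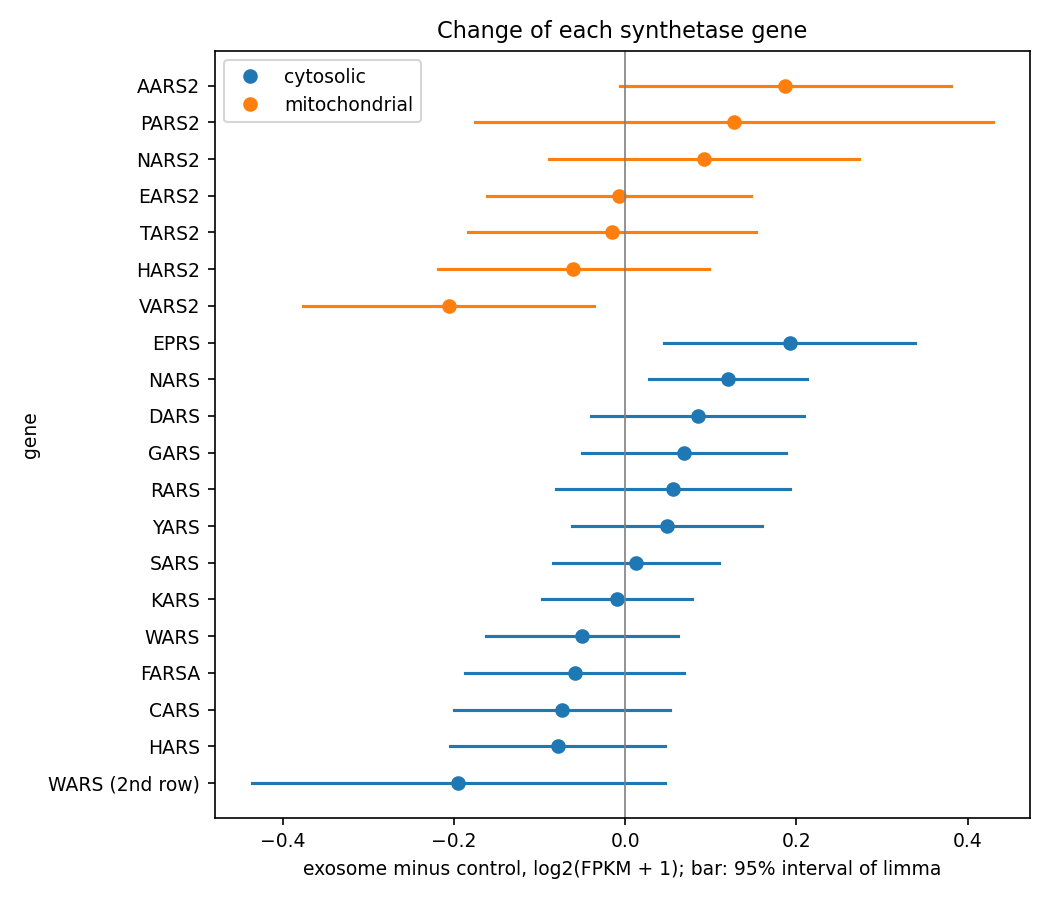
Log2 change of 20 of the 21 synthetase genes, exosome minus control on the scale of log2(FPKM + 1), with limma's 95% interval as the bar. The intervals of EPRS, NARS and VARS2 leave out 0, which is the same statement as their unadjusted p under 0.05, and none of the 21 passed over all genes.

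The cytosolic and mitochondrial sets did not separate by their changes. Of the 13 cytosolic genes 7 had positive and 6 negative log2 changes, with a median of 0.01, and of the 8 mitochondrial genes 4 had positive and 4 negative ones, with a median of 0.04. Of all genes tested 49.2% had a positive change and the median was -0.00229. Neither median was stable. The cytosolic one was 0.03 with the second WARS row left out (7 of 12 positive), 0.00539 without control replicate 2 and -0.00161 without exosome replicate 2. The mitochondrial one was 0.10 without exosome replicate 2, 0.02 without exosome replicate 1, -0.00668 without exosome replicate 3 and 0.09 with equal FPKM sums. The mitochondrial median exceeded the cytosolic one by 0.03, less than the spread between libraries of that difference (pooled SD 0.09). Its sign turned with the choices made: it was -0.02 without exosome replicate 3, -0.00220 with quantile normalization and -0.04 when unnamed synthetase rows were added. It was 0.10 without exosome replicate 2 and 0.00341 without exosome replicate 1, and with the second WARS row left out it was 0.01.

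Within the exosome group, most mitochondrial genes were lowest in the same library. Relative to the control mean, the median over the 8 mitochondrial genes was 0.13, -0.08 and 0.08 in exosome replicates 1, 2 and 3 and between -0.03 and -0.01 in the control libraries. Control values lie near 0 in part by construction, since each gene is set against the mean of those same libraries. The cytosolic median lay between -0.02 and 0.00327 in the exosome libraries and between -0.03 and 0.03 in the controls. Exosome replicate 2 was the lowest exosome library for 7 of the 8 mitochondrial genes, VARS2 being the exception, and for 4 of the 13 cytosolic genes, whereas it was the lowest for 37.7% of all genes tested. With the unnamed rows added it was the lowest for 9 of 13 mitochondrial and 6 of 18 cytosolic genes. Among the controls the cytosolic genes showed a like pattern. Control replicate 1 was the highest control library for 9 of the 13 (69.2%, beside 36.5% of all genes). Control replicate 3 was the lowest for 8 of the 13 (61.5%, beside 37.6%). With the unnamed rows added, each held for 12 of 18. These patterns were noticed in the data and have no test.

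**Figure D3:**
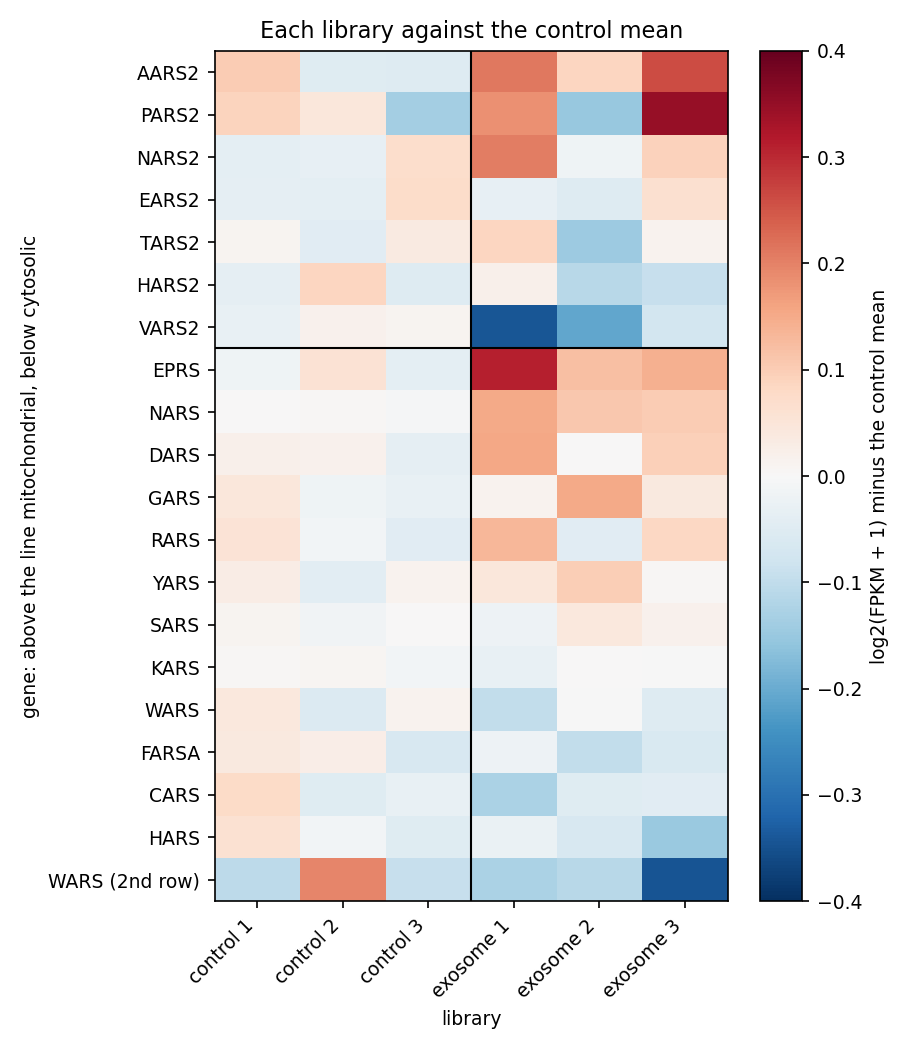
Difference of each library from the control mean on the scale of log2(FPKM + 1) for 20 of the 21 synthetase genes, mitochondrial above the line and cytosolic below it, with control libraries on the left and exosome libraries on the right. Exosome replicate 2 is paler or bluer than replicates 1 and 3 in most mitochondrial rows, where the medians of the 3 exosome libraries over all 8 genes were 0.13, -0.08 and 0.08.

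For 10 more rows the table gives an identifier without a symbol, and the reference table names them as synthetases, 5 cytosolic (AARS1, MARS1, TARS1, LARS1 and IARS1) and 5 mitochondrial (IARS2, LARS2, RARS2, SARS2 and WARS2). All 5 cytosolic ones had positive log2 changes, from 0.03 to 0.16, and none passed over all genes. IARS1, the isoleucine enzyme of the multisynthetase complex, was at 59.4, 61.3 and 63.4 FPKM in the controls and 71.4, 69.0 and 65.8 in the exosome libraries. The groups did not overlap, and the log2 change was 0.16 (SE 0.05, adjusted p = 0.313 in limma). LARS1, for leucine, was at 64.2, 63.3 and 63.2 FPKM in the controls and 72.9, 63.3 and 69.7 in the exosome libraries, where exosome replicate 2 was level with the controls. AARS1, MARS1 and TARS1 had log2 changes of 0.04, 0.06 and 0.03. Of the mitochondrial ones, WARS2 was at 6.46, 6.37 and 6.04 FPKM in the controls and 5.74, 6.03 and 5.80 in the exosome libraries, a narrow separation with a log2 change of -0.09 (adjusted p = 0.611 in limma). IARS2, LARS2, RARS2 and SARS2 overlapped between the groups, with log2 changes between -0.00359 and 0.06. Over all 31 rows 19 had a positive log2 change (61.3%, beside 49.2% of all genes), and an unadjusted p under 0.05 was reached by 3 higher and 1 lower row (12.9%, beside 12.6% of all genes). Split by place, 12 of 18 cytosolic and 7 of 13 mitochondrial rows had a positive change, with medians of 0.05 and 0.00479.

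Members of the multisynthetase complex were compared with the free cytosolic enzymes, a property that the choice by name did not use. Among the 7 complex members (EPRS, IARS1, LARS1, DARS, MARS1, RARS and KARS) 6 had a positive log2 change (85.7%, beside 49.2% of all genes). KARS was the exception, and the median was 0.08. Among the 10 free cytosolic enzymes, the second WARS row left out, 6 had a positive change and the median was 0.02. At an unadjusted p under 0.05 there were 2 complex members (EPRS and IARS1) and 1 free enzyme (NARS), all higher, which is 28.6% and 10.0% beside 5.06% of all genes. By catalytic fold, with EPRS left out because it holds both kinds of domain, 2 of 6 named class I genes (RARS and YARS) and 8 of 13 named class II genes had positive changes, with medians of -0.03 and 0.07. Unlike the counts over 7 complex and 10 free enzymes, these leave out the unnamed rows. Of those, class I IARS1, LARS1, MARS1, RARS2 and IARS2 had positive changes (0.16, 0.11, 0.06, 0.06 and 0.01). LARS2 and WARS2 had negative ones (-0.00359 and -0.09). The unnamed class II genes AARS1, TARS1 and SARS2 were at 0.04, 0.03 and 0.00479. The low class I median therefore holds for the named genes only. These counts describe few genes and carry no test.

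Where an amino acid has both a cytosolic and a mitochondrial gene, the ratio of their FPKM within a library is free of any scaling of that library. Ratios were taken for 4 pairs that the table names and, with the unnamed rows, for 11. Ratios in the control ran from 1.39 ± 0.0286 for IARS1 over IARS2 to 22.8 ± 1.60 for AARS1 over AARS2. NARS over NARS2 was at 20.9 ± 1.03 in the controls and 21.2 ± 1.52 in the exosome libraries. HARS over HARS2 was at 4.88 ± 0.343 and 4.82 ± 0.199, both pairs overlapping between the groups. EPRS over EARS2 was at 6.12, 6.46 and 5.54 in the controls and 7.70, 6.82 and 6.36 in the exosome libraries, where exosome replicate 3 lay below control replicate 2. EPRS over PARS2 was at 8.79 ± 0.716 and 9.21 ± 1.68.

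The groups did not overlap for 2 of the 11 ratios, beside 18.7% of all single genes tested. IARS1 over IARS2 was at 1.40, 1.35 and 1.41 in the controls and 1.61, 1.51 and 1.49 in the exosome libraries. LARS1 over LARS2 was at 2.98, 2.94 and 2.91 in the controls and 3.21, 3.18 and 3.14 in the exosome libraries. Both genes were lower in exosome replicate 2 than in the other exosome libraries, and its ratio was like theirs. A two-sided exact permutation test gave each a p of 0.1 (0.55 after Benjamini-Hochberg adjustment over the 11 ratios). With 3 libraries a group 0.1 is the smallest p possible, so no ratio could have passed. The log2 changes of the 11 ratios lay between -0.18 (AARS1 over AARS2) and 0.20 (EPRS over EARS2), 8 of them positive. EPRS over EARS2 and EPRS over PARS2, both positive, share a gene, so the ratios are not independent.

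**Figure D4:**
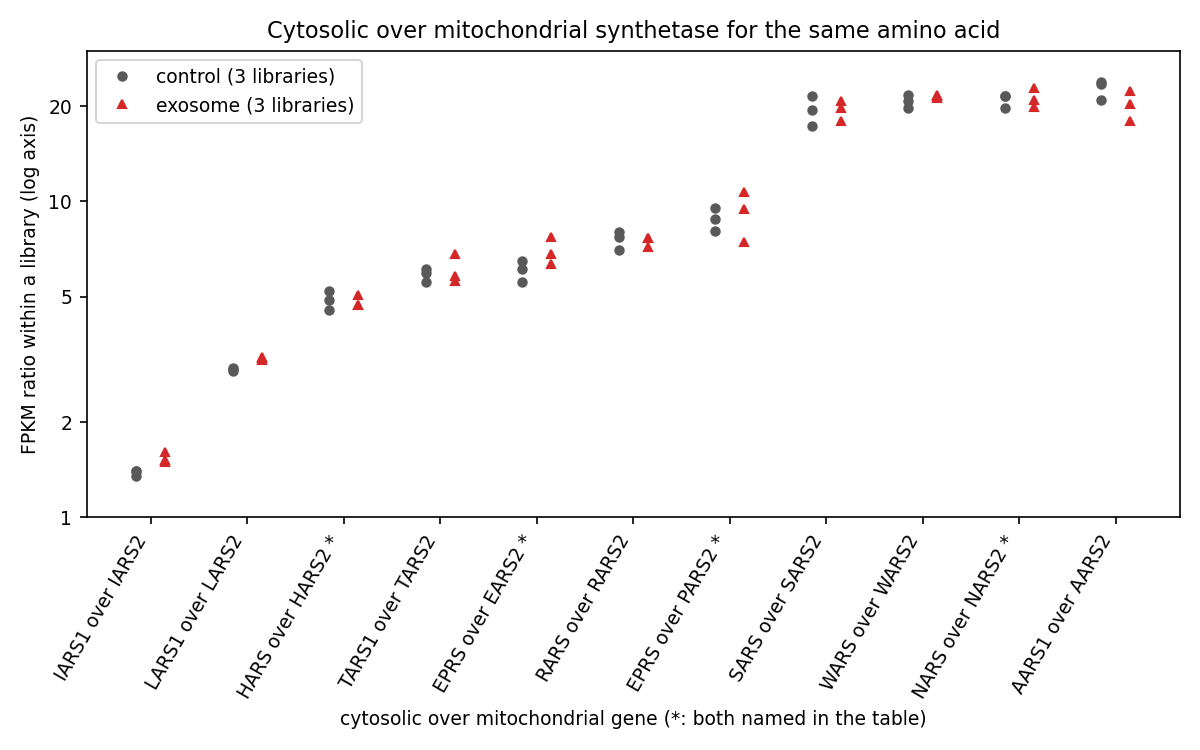
FPKM of the cytosolic gene divided by FPKM of the mitochondrial gene for the same amino acid in each library (log axis), for 11 pairs in the 3 control (circles) and 3 exosome libraries (triangles). Ratios span from about 1.39 for isoleucine to 22.8 for alanine in the control, and the groups are separate only for the isoleucine and leucine pairs.

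Genes that work next to the synthetases were read from 3 lists, none of whose members passed over all genes in limma with the 6 libraries. Of 9 genes of the complex scaffold and transfer RNA handling 6 had a positive log2 change, with a median of 0.04, and 1 of 9 was higher at an unadjusted p under 0.05 (beside 5.06% of all genes). This was XPOT, the nuclear exporter of transfer RNA, at 55.9, 55.9 and 59.0 FPKM in the controls and 66.2, 63.8 and 65.2 in the exosome libraries (log2 change 0.19, adjusted p = 0.235 in limma). Its groups did not overlap. Without exosome replicate 2 the list had 3 of 9 higher and 1 of 9 lower (beside 10.2% and 11.8% of all genes in that fit). AIMP2, a scaffold protein of the multisynthetase complex, was at 11.2 ± 0.503 and 11.0 ± 0.238 FPKM. AIMP1 and EEF1E1, its partners, were not analysed here.

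The list of the ATF4 pathway and the amino acid response had 33 rows, SLC7A1 being on 2 of them, 26 of them with a positive log2 change (78.8%, beside 49.2% of all genes) and a median of 0.08. At an unadjusted p under 0.05, 8 were higher and 0 lower, beside 5.06% and 7.5% of all genes. ATF4 itself was at 654.6, 632.0 and 644.3 FPKM in the controls and 615.3, 682.9 and 621.9 in the exosome libraries, a log2 change of -0.01, with both ends of the range in the exosome group. ASNS, which makes asparagine, was at 106.3 ± 4.10 and 115.9 ± 7.81 FPKM (log2 change 0.12, adjusted p = 0.449 in limma). The members with the smallest p were VLDLR, a lipoprotein receptor (log2 change 0.19), SLC1A4 and SLC38A2, carriers of neutral amino acids (0.38 and 0.21), and STC2, a secreted glycoprotein (0.31). SLC7A1, a carrier of arginine and lysine, and SLC3A2, the shared chain of several amino acid exchangers, followed at 0.17 and 0.20. A second row named SLC7A1 (ENSSSCG00000009324), which the reference table does not list, had a log2 change of 0.18, overlapping groups and an adjusted p = 0.424 in limma. SLC1A4 was at 6.61, 6.30 and 4.95 FPKM in the controls and 7.99, 7.19 and 8.88 in the exosome libraries, which were separate. The adjusted p-values of these 6 lay between 0.270 and 0.347 in limma. Without exosome replicate 2 the list had 8 higher and 3 lower (24.2% and 9.09%, beside 10.2% and 11.8% of all genes in that fit), and 1 of the 33 passed over all genes (3.03%, beside 2.74%). This was PPP1R15A, a phosphatase subunit that reverses the stress response and was chosen after its values were seen (log2 change -0.34, adjusted p = 0.0205 in limma). With all 6 libraries PPP1R15A had a log2 change of -0.19 (adjusted p = 0.559 in limma) and overlapping groups, since exosome replicate 2 at 48.5 FPKM lay above every control.

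Of 27 genes that serve mitochondrial gene expression outside the ribosome, 21 had a positive log2 change (77.8%), with a median of 0.09. At an unadjusted p under 0.05, 4 were higher (14.8%, beside 5.06% of all genes) and 0 lower. LRPPRC, which stabilises mitochondrial messenger RNA, was at 64.6, 65.1 and 64.4 FPKM in the controls and 81.6, 69.9 and 81.1 in the exosome libraries (log2 change 0.25, adjusted p = 0.251 in limma). All exosome libraries lay above the controls, replicate 2 the least. MTO1 and TRMT10C, which modify mitochondrial transfer RNA, had log2 changes of 0.19 and 0.21, and TFB2M, a transcription factor of the organelle, 0.20. Without exosome replicate 2 the list had 10 higher and 0 lower (37.0% and 0%, beside 10.2% and 11.8% of all genes in that fit), and 1 of the 27 passed over all genes (3.70%, beside 2.74%). This was LRPPRC (log2 change 0.33, adjusted p = 0.0180 in limma).

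**Figure D5:**
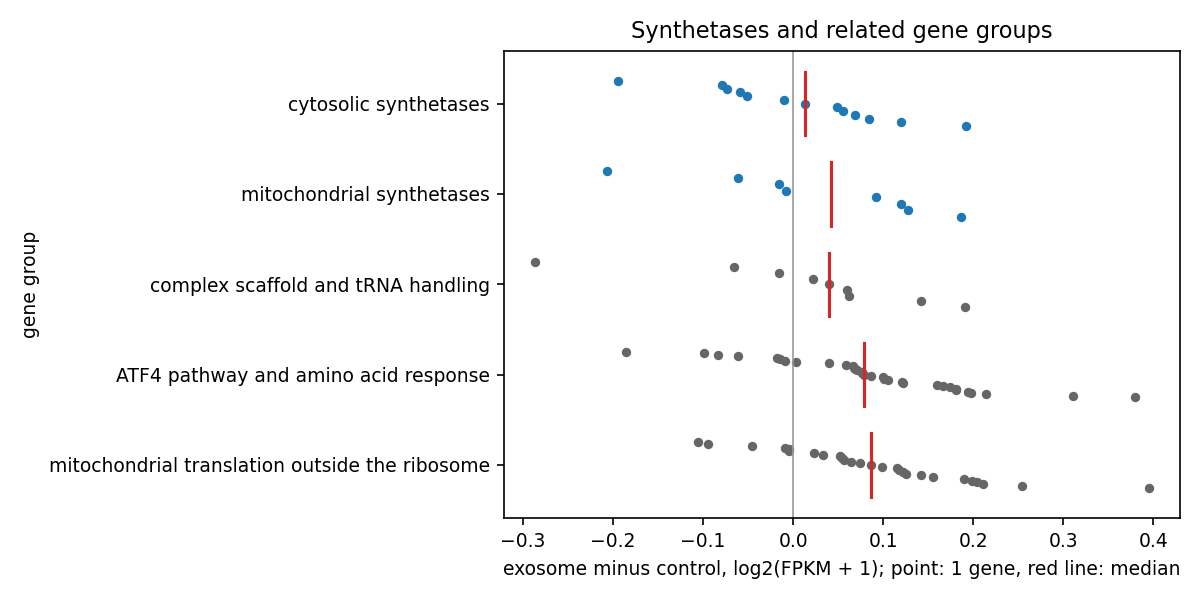
Log2 change of each gene (points), exosome minus control on the scale of log2(FPKM + 1), and the median of each group (red line), for the 13 cytosolic and 8 mitochondrial synthetases and the 3 related lists. The medians are 0.01 and 0.04 for the synthetases and 0.04, 0.08 and 0.09 for the lists, from top to bottom.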

How the data were processed

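Per the labels' protocols, the library kit was stranded and selected mRNA. Reads were demultiplexed (bcl2fastq 1.8.4), aligned (TopHat) and quantified (Cufflinks) on Sscrofa11.1, per the submitters' processing notes, with other versions, annotation and filters not given in the sources used here. A single table of values for 6 libraries was deposited by the authors, taken here as FPKM, a unit no header states. Columns were matched to samples by title. Genes whose mean reached 1 FPKM were tested as log2(FPKM + 1) with limma 3.58.1 in R 4.3.3 (intensity trend, two-sided, Benjamini-Hochberg over 10846 genes). All 21 synthetase rows passed this filter. The code was tested on simulated data.

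Members and lists were chosen with earlier results of these data known. Of the mitochondrial members 1 enters the counts, sums and medians, but its own values and its pair ratio are not reported here; the others are named. Values per library are given for members at an unadjusted p under 0.05, with separate groups or at the ends of the level order, and for others of interest chosen after their values were seen. From each related list up to 6 genes with the smallest p are named, plus ATF4, ASNS and AIMP2. Positions were matched by symbol to RefSeq genes on Sscrofa11.1 (19 of 21), and identifiers to a reference table of symbols (19 of 21). Alternatives were another pseudocount, no filter, other scalings, no trend, the replicate number as a block, each library left out, and other member sets. Figures were drawn with matplotlib 3.10.9.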

Additional observations from a re-analysis of the deposited data

How the results depend on the processing

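None of the 21 synthetase genes passed over all genes in limma under any alternative fit. EPRS, NARS, VARS2 and the second WARS row kept their direction in all 48 gene and alternative combinations. Their groups do not overlap, so leaving out 1 library could not have turned it, nor could the pseudocount, filter, trend or block. Only the other scalings could have done so. Their lowest adjusted p-values in limma ran from 0.108 (EPRS) to 0.282 (second WARS row), each without exosome replicate 2. At an unadjusted p under 0.05 the counts of 2 higher and 1 lower became 5 and 0 with equal FPKM sums. They ranged from 0 to 6 higher and from 0 to 1 lower when 1 library was left out. Calls in either direction took 12.6% of all genes in the main fit and 13.9% with equal sums. With 1 library left out they took 7.39% to 22%. The cytosolic median log2 change of 0.01 was 0.0632 with equal FPKM sums and 0.0413 with quantile normalization. The median of all genes was 0.04 with equal sums and 0.00474 with quantile normalization. In the related lists 13 of 68 genes had an unadjusted p under 0.05 (19.1%, beside 12.6% of all genes), 20 with equal sums (29.4%, beside 13.9%), and when 1 library was left out the count ran from 8 (control replicate 3, 11.8% beside 8.18%) to 24 (exosome replicate 2, 35.3% beside 22%). The ratio of the cytosolic to the mitochondrial sum, 14.8 in the controls and 15.4 with exosomes, was 9.02 and 9.43 without GARS and KARS and 10.1 and 10.4 with the unnamed rows. The median change over the 4 named pair ratios, 0.04, ranged from -0.04 to 0.12 with 1 library left out. Pseudocount, filter, trend and block do not enter a ratio within a library, so these were not run for it.

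Libraries that share a replicate number did not all deviate together (correlations of 0.16, 0.14 and -0.07 for numbers 1, 2 and 3), and control replicate 3 correlated best with exosome replicate 2 (0.17). With the replicate number as a block the counts stayed at 2 higher and 1 lower. In that fit 12.3% of all genes were called in either direction, beside 12.6% without the block. Leaving out the second WARS row and the other member sets for this ratio of sums were chosen after seeing the data. Depth is unknown, so no counting error can be given for the low mitochondrial genes.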
